A study of Homo sapiens with 6 samples.

Results

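The genes described here are 10 members of the hnRNP family in HEK293T cells, a human embryonic kidney cell line: HNRNPA1, HNRNPA2B1, HNRNPA3, HNRNPC, HNRNPD, HNRNPDL, HNRNPK, HNRNPL, HNRNPM and HNRNPR. They were chosen by symbol, and a peak was counted for a gene when its midpoint lay within the gene on the same strand. The series holds 6 eCLIP libraries, 2 of each kind. The SF3B4 libraries were made with an antibody to SF3B4, a subunit of the U2 small nuclear ribonucleoprotein. The G4PID libraries were made with anti-HA from cells given a plasmid for G4PID, an artificial biotin ligase that seeks out G-quadruplexes, and the input libraries were made with no antibody. The treatment text, common to every library, names transfection of a G4PID or a miniTurboID plasmid and 500 µM biotin for 30 min. It leaves unsettled whether the SF3B4 and input cells received either.

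In eCLIP, RNA is crosslinked to protein in the cell, recovered with the protein and sequenced, and peaks are stretches of RNA recovered above input. Each peak carries 2 values of the authors, a log2 fold over input and a −log10 p-value, and there is 1 list per antibody. No value per library was analysed, so no peak has a replicate error. The labels do not say whether the libraries of a kind came from separate cultures. The SF3B4 list holds 3660 peaks and the G4PID list 270. All fold values below are those of the authors and only describe, order or filter peaks within 1 list. The lists hold peaks past the thresholds of the authors, so a gene or intron without a peak is not shown to be unbound.

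The hnRNP proteins coat nascent transcripts and take part in splicing, RNA export and RNA stability. HNRNPA1, HNRNPA2B1 and HNRNPA3 are close relatives that bind through paired RNA recognition motifs and often repress splice sites. HNRNPC binds uridine tracts, HNRNPD (AUF1) and its relative HNRNPDL bind AU-rich RNA, HNRNPK binds C-rich RNA through KH domains, and HNRNPL binds CA repeats. HNRNPM and HNRNPR are further RNA recognition motif proteins. SF3B4 belongs to the SF3b complex of U2, which settles on the branch point a short way upstream of the 3' splice site when an intron is recognised. Transcripts that carry an early stop codon, or a spliced junction well after the stop codon, are degraded by nonsense-mediated decay, here called decay. Several hnRNP proteins, HNRNPL and HNRNPA2B1 among them, are known to limit their own amount by steering their transcripts into such forms.

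SF3B4 peaks lay in 8 of the 10 genes, 33 in all, and HNRNPM and HNRNPR held none. In the same list 9.36% of all 19940 protein-coding genes held a peak, 1867 genes. In the G4PID list none of the 10 genes held a peak, against 0.507% of all protein-coding genes, 101 genes. At that background a list of 10 genes without a G4PID peak is not a result about these genes. The 10 genes were picked with results of these data known, and the counts are descriptions.

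Sequences from a few intron ends show what the peaks cover. Each is written 5' to 3' in the sense of the gene, on hg38, with the last 60 intron bases and the first 3 exon bases. Peak bases are in capitals. The 3 are the highest HNRNPA2B1 peak, the highest HNRNPL peak and the single HNRNPD peak, the highest peaks of their genes for which the annotated transcripts gave the bases.
HNRNPA2B1 intron 2, chr7:26197730-26197792, minus strand: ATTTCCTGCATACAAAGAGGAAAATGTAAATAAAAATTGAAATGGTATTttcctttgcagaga
HNRNPL intron 1, chr19:38847432-38847494, minus strand: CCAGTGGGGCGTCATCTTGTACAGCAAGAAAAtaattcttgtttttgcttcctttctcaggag
HNRNPD intron 7, chr4:82355399-82355461, minus strand: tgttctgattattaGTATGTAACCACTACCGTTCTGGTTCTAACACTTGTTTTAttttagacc
In HNRNPA2B1 and HNRNPD the peak stopped short of the intron end, with 11 and 6 bases between it and the exon. In HNRNPL it began further upstream than the bases shown and left out 28 bases, mostly pyrimidines, that close with AG. All of these intron ends close with the AG of a 3' splice site.

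4 further peaks lay at 3' splice sites that a decay transcript, and no protein-coding transcript, of their gene uses. Their last 27 intron bases are in lower case and the first 3 exon bases in capitals. They are shown because all other peaks near a splice site in these genes lay at sites that coding transcripts use.
HNRNPA1 site of exon 11 of HNRNPA1-205, chr12:54286926-54286955, plus strand: ctttacaacctcttttgccttttgcagGAA
HNRNPA2B1 site of exon 12 of HNRNPA2B1-203, chr7:26191126-26191155, minus strand: tcatttttttccctgccggaattttagCAT
HNRNPA2B1 site of exon 13 of HNRNPA2B1-203, chr7:26190458-26190487, minus strand: tcagatactttttttttcctttggcagGAA
HNRNPL site of exon 7 of HNRNPL-202, chr19:38841680-38841709, minus strand: ttatgactgtaaaaccatgtgatgcagGGT
The first 3 run through a pyrimidine-rich stretch into AG. The HNRNPL site does not: of the 17 bases from 20 to 4 upstream of its exon, 7 were pyrimidines.

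The peaks of the 8 genes sat in a narrow stretch ahead of 3' splice sites. Of the 33 peaks, 30 were centred 10 to 60 nt ahead of the closest annotated 3' splice site, 90.9% with an exact 95% interval of 75.7 to 98.1%. Among all other SF3B4 peaks, leaving aside genes for which no 3' splice site is annotated, the share was 2547 of 3593, 70.9% with an interval of 69.4 to 72.4%, and in other hnRNP genes it was 31 of 42, 73.8%. The intervals, by Clopper and Pearson, cover counting error only, and peaks of 1 gene share their transcript and are not replicates. Within 1 to 100 nt upstream, called at the site from here on, the counts were 32 of 33 peaks in the 8 genes and 3107 of 3593 elsewhere, 86.5%. Their median distance was 32.5 nt in the 8 genes and 30 nt elsewhere. Their single peak farther than 100 nt upstream was in intron 4 of HNRNPL, at 137 nt.

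**Figure D1:**
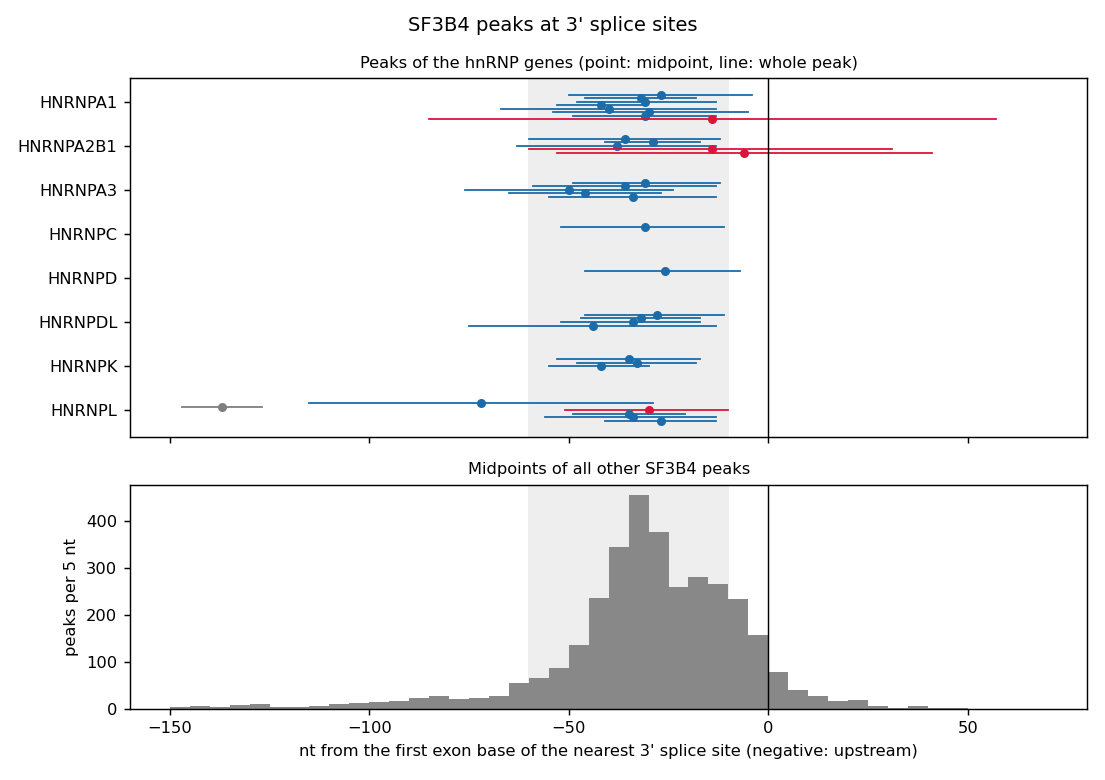
Position of SF3B4 peaks relative to the nearest 3' splice site, in nt from the first exon base with upstream negative. Upper panel, each peak of the 8 hnRNP genes as a midpoint (point) with its whole extent (line), blue at sites of coding transcripts, red at sites of decay but no coding transcripts, grey farther than 100 nt. Lower panel, the number of midpoints of all other SF3B4 peaks in bins of 5 nt. The shaded stretch runs from 10 to 60 nt upstream and holds 30 of the 33 hnRNP midpoints, and the lines that cross 0 are 3 of the 4 red ones.

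The peaks of the 8 genes were also short, and at coding sites they kept clear of the exon. Their median width was 40 nt, with a range of 21 to 143 nt, against a median of 72 nt and a range of 21 to 284 nt for all other peaks. In 18 other hnRNP genes, 10 of which held a peak, the median was 45 nt. Leaving aside sites of decay but no coding transcripts, 0 of 28 peaks of the 8 genes ran over the splice site into the exon, which with an exact interval allows up to 12.3%. In the other hnRNP genes 5 of 34 such peaks did, 14.7%, and over all other peaks 1540 of 3035, 50.7%. Width moved with this count. A cap was set at 87 nt, the widest of the 28. Under it the counts were 0 of 28 in the 8 genes and 3 of 32 in the other hnRNP genes, 9.38%. Over all other peaks 649 of 2029 crossed, 32.0%. The cap does not make the widths equal: the 28 had a median of 38.5 nt, and the next widest had 63 nt. The part of width in this contrast was not tested. The bases left between peak and exon numbered 3 to 30 in the 8 genes, with a median of 12, and had a median of 14 for the 1495 other peaks that stopped before the exon.

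Fold over input was high in these genes for the list. The log2 fold ran from 3.17 to 5.97 over the 33 peaks, with quartiles of 3.87 and 5.35 and a median of 4.47. All other SF3B4 peaks reached 7.26, with quartiles of 3.50 and 4.53 and a median of 3.91. The median −log10 p was 12.6 in the 8 genes and 8.92 elsewhere. Other hnRNP genes had like values, with a median log2 fold of 4.21, a highest of 7.13 and a median −log10 p of 13.2. None of these values was tested, since the lists hold no replicate error. Many peaks carry identical value pairs: 25 of the 33 hnRNP peaks, 75.8%, and 88.8% of the others had a log2 fold and a −log10 p shared exactly with at least 1 other peak. The peaks of HNRNPA3 intron 1, HNRNPK intron 12 and HNRNPL intron 1 all carried a log2 fold of 5.53 and a −log10 p of 12.6, a pair found at 7 peaks of the list. Differences between peaks of such values are therefore coarse steps. A −log10 p of 15.7 recurred to the last digit at peaks of HNRNPA1, HNRNPA2B1 and HNRNPA3 whose log2 fold ran from 4.40 to 5.97. It may be a limit of the calculation, so peaks that carry it cannot be ordered by it against others. The amount of each RNA in the cells was not measured in these lists, so its part in the number or the height of peaks was not tested.

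**Figure D2:**
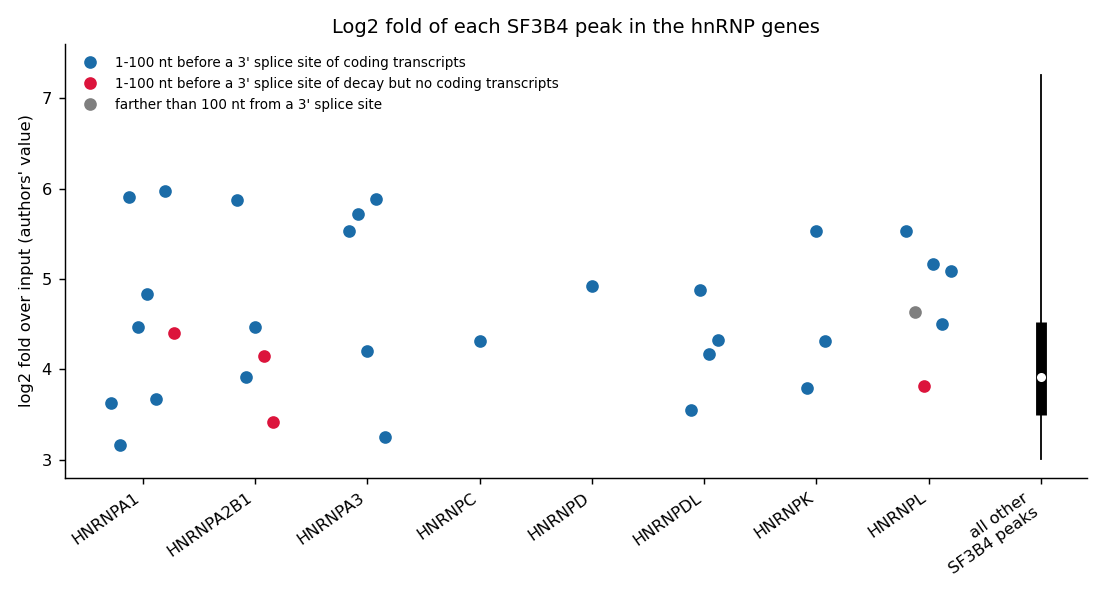
Log2 fold over input of each SF3B4 peak, as the authors give it, by gene, in transcript order from left to right within a gene. Points are single peaks, blue at 3' splice sites of coding transcripts, red at sites of decay but no coding transcripts and grey farther than 100 nt. The bar at the right gives all other SF3B4 peaks, with the quartiles as the thick part, the median as the white point and the range as the thin line. The highest points, 5.87 to 5.97, belong to HNRNPA1, HNRNPA2B1 and HNRNPA3, and the red points lie between 3.42 and 4.40.

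HNRNPA1 (ENSG00000135486.17, chr12:54280193-54287088, plus strand, 6896 nt) held 8 peaks, the most of the 10 genes. By number of peaks it stood at place 17 of 1876 genes with an SF3B4 peak, a place shared by 9 genes. Its coding transcript with most exons, HNRNPA1-202, has 10 introns, and 7 of them had a peak at their 3' end. Only introns 5, 7 and 10 had none. The log2 fold was 3.63 at intron 1, 3.17 at intron 2, 5.90 at intron 3, 4.47 at intron 4, 4.84 at intron 6, 3.67 at intron 8 and 5.97 at intron 9. Introns of like length differed widely: intron 2, with 292 nt, carried the lowest value of all 33 hnRNP peaks, and intron 9, with 290 nt, the highest. The −log10 p was 20.3 at intron 8, where the fold was low, 15.4 at intron 1, 11.8 at intron 2 and 11.0 at intron 4. Introns 3, 6 and 9 carried the recurring value of 15.7, so their place in this order is not known. The midpoints of these 7 peaks lay 27 to 42 nt upstream. The intron 9 peak, at chr12:54284209-54284245 and 31 nt upstream of its splice site, precedes the exon that holds the stop codon, and ranked 46 in the list of 3660.

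The other HNRNPA1 peaks differed in how the annotation treats their introns. The peak of intron 2 lay inside retained-intron transcript HNRNPA1-207, and that of intron 8 inside HNRNPA1-212. The splice site of intron 6 was used by 4 of the 6 coding transcripts that span it. The peak of intron 4, in an intron of 93 nt, was 23 nt wide and had its midpoint 42 nt upstream, with 30 nt left before the exon. The last peak, at chr12:54286868-54287010, was the widest of the 33 at 143 nt, with a log2 fold of 4.40. It lay at the decay site printed above, with its midpoint 14 nt upstream. All 8 HNRNPA1 peaks also lie in AC078778.2, an annotated sense-overlapping gene, and the lists cannot tell the 2 genes apart.

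HNRNPA2B1 (ENSG00000122566.21, chr7:26173057-26201529, minus strand) held 5 peaks, 3 at the ends of the 11 introns of HNRNPA2B1-201. The highest, with a log2 fold of 5.87 and rank 61, was at intron 2, of 98 nt, and is the first sequence printed above. It covered 49 of the 98 nt of that short intron. Retained-intron transcripts HNRNPA2B1-204 and HNRNPA2B1-206 keep this stretch as exon. The next intron, of 160 nt, had a peak of 3.91, and intron 10, of 673 nt and ahead of the exon with the stop codon, had 4.47. The −log10 p was 15.7, 10.4 and 15.7 at introns 2, 3 and 10, and the midpoints lay 36, 29 and 38 nt upstream. Introns 1, 4 to 9 and 11 had none. The other 2 peaks lay downstream of the stop codon, at both decay sites of HNRNPA2B1-203.

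HNRNPA3 (ENSG00000170144.20, chr2:177212563-177223958, plus strand) held 5 peaks, each at the 3' end of an intron that coding transcripts use. The values were 5.53 at intron 1, 5.71 at intron 2, 4.20 at intron 4, 5.88 at intron 6 and 3.25 at intron 8 of the 10 introns of HNRNPA3-201. Its median of 5.53 was the highest gene median of the 8 genes. Introns 2 and 6 both have 88 nt, and they carried its 2 highest peaks. The peak of intron 8 had the lowest −log10 p of all 33, 5.66, and was 1 of 38 peaks in the list with the same pair of values. The others had a −log10 p of 12.6 to 15.7. The highest, at chr2:177216795-177216833, ranked 60 in the list. Midpoints lay 31 to 50 nt upstream, so that HNRNPA3 held the 2 most distant of the peaks within the stretch of 10 to 60 nt, at introns 4 and 6 with 50 and 46 nt. HNRNPA3 has no annotated decay transcript.

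Relatives allow a comparison of introns at the same place in related genes. A position counted as shared only where coding introns met the same aligned residue and the same place in its codon. Introns shifted against each other in the alignment were thus not counted. HNRNPA1 and HNRNPA3 share 80.6% of 351 aligned residues and 7 intron positions. At 3 of these both genes had a peak, at 2 only HNRNPA1 did, and at 2 neither did. Each gene has 9 coding introns, and introns 1 and 8 were not matched. Both genes had a peak at both, with a log2 fold of 3.63 in HNRNPA1 and 5.53 in HNRNPA3 at intron 1. At intron 8 the values were 3.67 and 3.25. The count of positions with a peak in both may therefore be too low. At the shared positions with a peak in both, HNRNPA1 had a log2 fold of 3.17 and HNRNPA3 5.71 at intron 2, 4.47 and 4.20 at intron 4, and 4.84 and 5.88 at intron 6. HNRNPA3 thus had the higher value at introns 2 and 6 and HNRNPA1 at intron 4. Without a replicate error these differences cannot be judged. HNRNPA1 and HNRNPA2B1 share 4 positions, with a peak in both at 1, in HNRNPA1 only at 2 and in neither at 1. Intron 9 of HNRNPA1 and intron 10 of HNRNPA2B1, both with a peak and ahead of the exon with the stop codon, were not matched. HNRNPA2B1 and HNRNPA3 share 5, with a peak in both at 1, in HNRNPA3 only at 2 and in neither at 2.

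HNRNPC (ENSG00000092199.17, chr14:21209136-21269494, minus strand) held 1 peak, as did 1079 of the 1876 genes. It had a log2 fold of 4.31 and a −log10 p of 9.63 and lay 31 nt upstream of the end of intron 5 of HNRNPC-202, at chr14:21231083-21231124. That intron has 2880 nt, the longest among the introns of these genes with a peak at their 3' end. The splice site is used by 22 of the 24 coding transcripts that span it. The other 9 introns, among them 1 of 28371 nt, had no peak.

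HNRNPD (ENSG00000138668.18, chr4:82352498-82374503, minus strand) also held 1 peak, at chr4:82355408-82355447 with a log2 fold of 4.93 and a −log10 p of 8.10, at the end of intron 7 of the 8 introns of HNRNPD-201. The intron has 1135 nt, the next exon holds the stop codon, and retained-intron transcript HNRNPD-210 covers the peak. In the sequence printed above the peak holds CTAAC, a match to the branch-like letters CTNAC, with the last A 18 nt upstream of the exon. HNRNPDL (ENSG00000152795.17, chr4:82422564-82430408, minus strand), its neighbour on chromosome 4, held 4 peaks on the 8 introns of HNRNPDL-210. They had log2 folds of 3.54 at intron 3, 4.88 at intron 5, 4.17 at intron 6 and 4.32 at intron 8. The last lay ahead of a splice site that follows the stop codon, which 5 coding and 3 decay transcripts use. That peak, at chr4:82424896-82424958, was 63 nt wide with a −log10 p of 23.2, whereas the other 3 were 31 to 36 nt wide with 7.47 to 8.53. Its midpoint lies in an exon of coding transcript HNRNPDL-204, which reads through the intron end. The midpoints of the 4 lay 28 to 44 nt upstream.

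HNRNPD has 1 peak, so it could share a peak with HNRNPDL at no more than 1 intron position. The low number of shared peaks is thus not a result about position. Only coding introns were matched, which leaves out intron 8 of HNRNPDL with its last peak. Their proteins agree at 70.5% of 285 aligned residues, and 6 intron positions are shared. A peak in both was seen at 0 of the 6, a peak in HNRNPDL only at 3, a peak in HNRNPD only at 1 and none at 2. The 3 HNRNPDL introns, of 98, 128 and 556 nt, correspond to HNRNPD introns of 650, 417 and 112 nt. The HNRNPD intron with a peak, of 1135 nt, corresponds to an HNRNPDL intron of 333 nt.

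HNRNPK (ENSG00000165119.20, chr9:83968083-83980616, minus strand) held 3 peaks on the 16 introns of HNRNPK-205, 3.79 at intron 8, 5.53 at intron 12 and 4.31 at intron 13. These introns have 502, 315 and 360 nt, and the midpoints lay 35, 33 and 42 nt upstream. The −log10 p was 12.4, 12.6 and 9.63. The highest peak was at chr9:83971374-83971404. Introns 12 and 13 are neighbours, and the peak of intron 13 lay inside retained-intron transcript HNRNPK-210.

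HNRNPL (ENSG00000104824.17, chr19:38836388-38852347, minus strand) held 6 peaks, and 4 of the 12 introns of HNRNPL-201 had a peak at their 3' end. The log2 fold was 5.53 at intron 1, 5.17 at intron 10, 4.50 at intron 11 and 5.09 at intron 12. Introns 10, 11 and 12 are the last of the gene, so the peaks form a run at its end. Their midpoints lay 35, 34 and 27 nt upstream, with a −log10 p of 9.47, 11.3 and 9.20. The intron 1 peak, at chr19:38847463-38847549, was 87 nt wide and its midpoint lay 72 nt upstream, the one hnRNP peak between 60 and 100 nt. The peaks of introns 10, 11 and 12 lie also in AC008982.1, a protein-coding gene annotated on the same strand. The peaks of introns 1, 11 and 12 lay inside retained-intron transcripts HNRNPL-209, HNRNPL-205 and HNRNPL-204. The peak of intron 4, at chr19:38844231-38844251, was the narrowest of the 33 at 21 nt, had a log2 fold of 4.64, and is the peak at 137 nt. Its −log10 p was 6.46, and it was 1 of 43 peaks in the list with the same pair of values.

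**Figure D3:**
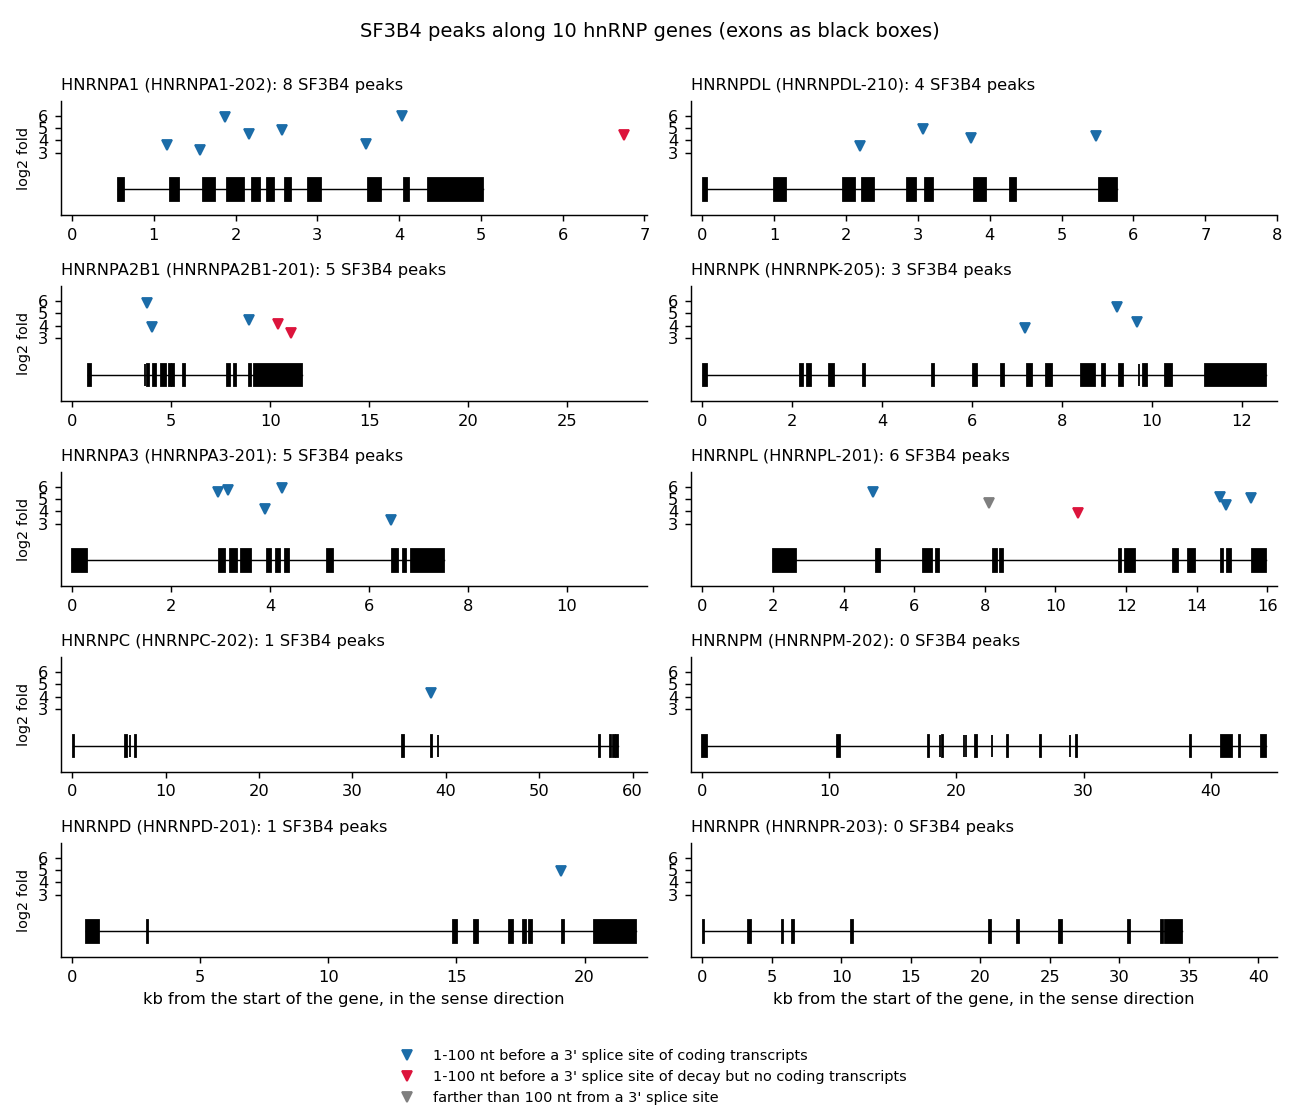
SF3B4 peaks along the 10 hnRNP genes. Each panel shows the coding transcript with most exons (black boxes are exons, the line is intron) against kb from the start of the gene in the sense direction, with each peak as a triangle at the height of its log2 fold, coloured as blue at sites of coding transcripts, red at sites of decay but no coding transcripts and grey farther than 100 nt. HNRNPA1 has 8 triangles, HNRNPM and HNRNPR none, and the red triangles lie past the last introns in HNRNPA1 and HNRNPA2B1 and inside intron 6 of HNRNPL.

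HNRNPM (ENSG00000099783.11, chr19:8444767-8489114, plus strand) and HNRNPR (ENSG00000125944.19, chr1:23303771-23344336, minus strand) held no peak of either list. HNRNPM-202 has 16 introns with a median of 1402 nt and HNRNPR-203 has 10 with a median of 2536.5 nt. These were the highest median intron lengths of the 10 genes, ahead of HNRNPD with 1142 nt and HNRNPC with 813.5 nt, which held 1 peak each. In the other 6 genes, with 3 to 8 peaks, the median ran from 90.5 nt in HNRNPA3 to 674 nt in HNRNPL. Over the 85 introns of the 8 genes with a peak, the 28 with a peak at their 3' end had a median of 337.5 nt and the 57 without 453 nt, and both kinds reached below 100 nt. In all other genes with a peak the medians were 573 nt with and 866 nt without. The lengths with a peak fall within the range of those without, and the part of intron length in these counts was not tested.

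**Figure D4:**
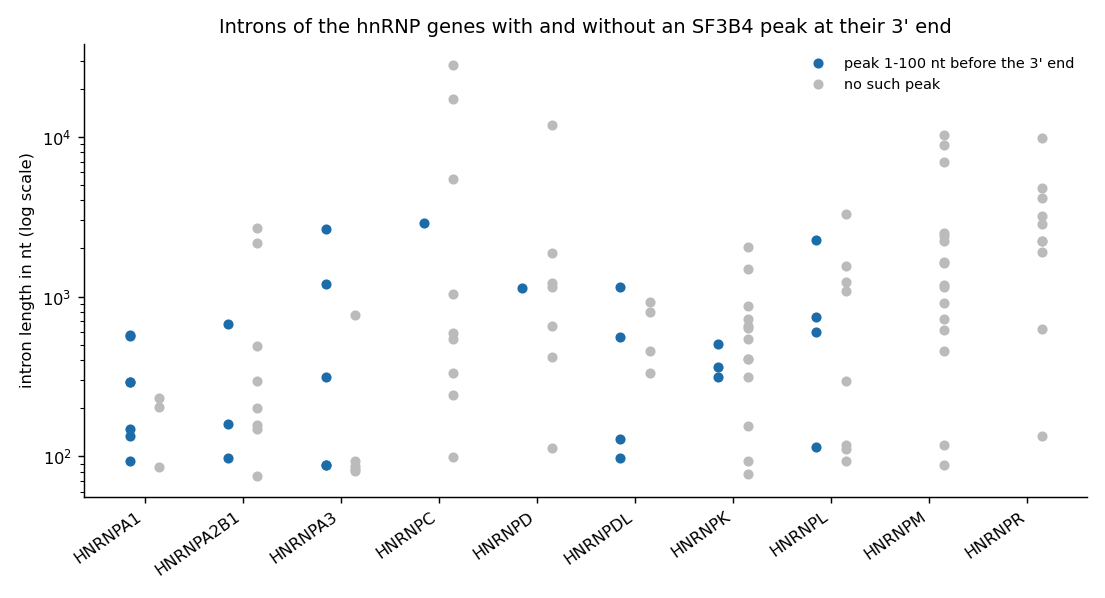
Length in nt, on a log scale, of every intron of the reference transcript of each of the 10 genes, blue where an SF3B4 peak lies within 100 nt upstream of its 3' end and grey where none does. Introns with a peak run from 88 to 2880 nt, and HNRNPM and HNRNPR show grey points only.

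Counted over introns, 28 of 85, 32.9% with an exact interval of 23.1 to 44.0%, had a peak at their 3' end in the 8 hnRNP genes. In all other protein-coding genes with a peak the share was 2888 of 27771, 10.4%. The median number of peaks in a gene was 4.5 for the 8 hnRNP genes and 1 for 1750 others. Among the 18 other hnRNP genes, 10 held an SF3B4 peak, 42 peaks in all, with 34 of 123 introns, 27.6%, and a median of 2 peaks. By highest log2 fold these were led by HNRNPH1 with 7.13, HNRNPU with 6.68, PTBP1 with 5.24 and HNRNPH3 with 5.15. HNRNPH1 and HNRNPU, with 11 peaks each, exceeded HNRNPA1. Both sets of hnRNP genes thus stood above the share of all other genes, a difference that was not tested.

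Peaks at decay sites were counted next. Of the 32 hnRNP peaks at a 3' splice site, 4 lay at a site of decay but no coding transcripts, 12.5% with an exact interval of 3.51 to 28.99%. All other peaks had 72 of 3107 there, 2.32%, and the other hnRNP genes 0 of 34, which allows up to 10.3%. The intervals of the 10 genes and of the other hnRNP genes overlap. Annotation gives the 10 genes 10 such sites, in 7 genes, and 4 of them had a peak, in HNRNPA1, HNRNPA2B1 and HNRNPL. Of 133 sites of coding transcripts in the same genes, 28 had a peak. Sites that some decay transcript uses, whether or not coding transcripts do, held 25 of the 32 peaks, 78.1%, against 42.6% of all other peaks and 79.4% in the other hnRNP genes.

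In HNRNPA1 and HNRNPA2B1 the decay sites lie in the 3' UTR. HNRNPA1-205 splices past the end of HNRNPA1-202 into exon 10, of 71 nt, and exon 11, of 136 nt at chr12:54286953-54287088. A peak lay at the site of exon 11, after an intron of 220 nt, and none at that of exon 10. The exon 11 site is used also by 1 retained-intron transcript and 1 further noncoding transcript, and the peak lies inside the long last exon of coding transcript HNRNPA1-203. HNRNPA2B1-203 ends in exon 12, of 136 nt at chr7:26190993-26191128, and exon 13, of 336 nt at chr7:26190125-26190460. Both sites had a peak, at chr7:26191097-26191188 with a log2 fold of 4.15 and at chr7:26190419-26190513 with 3.42. The stretch is plain 3' UTR exon in HNRNPA2B1-201 and HNRNPA2B1-209. The first of these peaks had a −log10 p of 26.8, the highest value listed for the 33.

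These 3 peaks differed in shape from those of the coding sites. They were 143, 92 and 95 nt wide, with midpoints 14, 14 and 6 nt upstream, and each ran over the splice site into the decay exon. All 28 peaks at coding sites stopped before the exon and were at most 87 nt wide. The midpoint of each of the 3 lies in an exon of a coding transcript as well as ahead of the decay site. Among the 72 other peaks at sites of decay but no coding transcripts, 51 crossed the site, 70.8%, and 6 had their midpoint in a coding transcript's exon, 8.33%. Whether their reads came from the uninterrupted 3' UTR or from RNA about to be spliced at the decay site cannot be told apart in a peak list.

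HNRNPL carries its decay site inside an intron. Intron 6 of HNRNPL-201 has 3282 nt, and HNRNPL-202 includes within it an exon 7 of 70 nt, at chr19:38841613-38841682, which holds the end of the reading frame. The peak at chr19:38841692-38841733 had a log2 fold of 3.82, a midpoint 30 nt upstream of this exon and 9 nt left before it. Its shape was that of the coding sites, 42 nt wide. No peak lay at the coding end of intron 6. Retained-intron transcripts HNRNPL-203 and HNRNPL-206 also cover the stretch. The exon with 60 nt on either side, exon bases in capitals, reads as follows.
HNRNPL-202 exon 7, chr19:38841553-38841742, minus strand: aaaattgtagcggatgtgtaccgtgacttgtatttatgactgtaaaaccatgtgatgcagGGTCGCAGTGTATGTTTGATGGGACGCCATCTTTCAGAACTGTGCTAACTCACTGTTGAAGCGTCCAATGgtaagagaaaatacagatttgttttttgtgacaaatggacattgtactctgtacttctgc

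**Figure D5:**
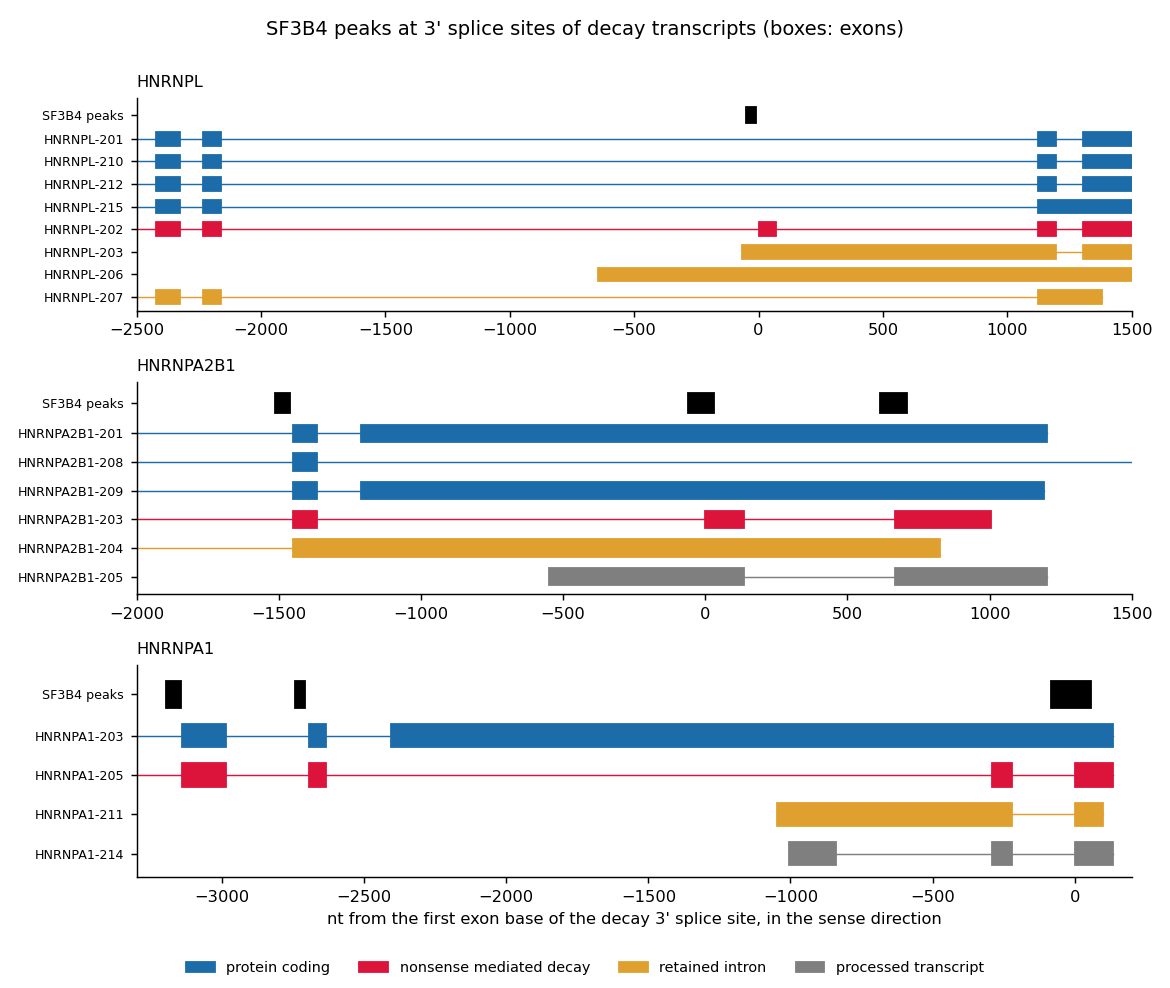
SF3B4 peaks (black) over annotated transcripts around the decay sites of HNRNPL, HNRNPA2B1 and HNRNPA1, in nt from the first exon base of the decay 3' splice site in the sense direction (for HNRNPA2B1 that of exon 12, for HNRNPA1 that of exon 11). Boxes are exons and lines introns, with blue for protein-coding, red for decay, yellow for retained-intron and grey for processed transcripts. The HNRNPL peak ends before the red exon, while the peaks of the other 2 genes reach into theirs.

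Decay sites without a peak were found in HNRNPC, HNRNPD, HNRNPDL and HNRNPR, and at exon 10 of HNRNPA1-205. In HNRNPD and HNRNPDL the decay exons are alike in place and size. HNRNPD-211 has 1 of 107 nt inside intron 8 of HNRNPD-201, and HNRNPDL-202, HNRNPDL-203 and HNRNPDL-209 share 1 of 105 nt inside intron 8 of HNRNPDL-210, both after the stop codon. Neither had a peak. The HNRNPDL peak at the end of intron 8 is at the splice site that follows, which is used whether or not the 105 nt exon is included.

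The share of peaks in retained introns lay near that of the rest of the list. Of 29 hnRNP peaks outside exons of other transcripts, 9 lay in a retained-intron transcript, 31.0% with an exact interval of 15.3 to 50.8%. The share was 36.7% of 2873 such peaks elsewhere and 56.3% of 32 in the other hnRNP genes. The 9 were spread over HNRNPA1 (2), HNRNPA2B1 (1), HNRNPD (1), HNRNPK (1) and HNRNPL (4), and none was in HNRNPA3, HNRNPC or HNRNPDL. HNRNPDL has no annotated retained-intron transcript, while HNRNPC has 6 and HNRNPA3 1.

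Bases of the intron end could be read for 13 of the 33 peaks, those whose intron end some annotated transcript keeps as exon, so they are not a sample of all 33. All 13 closed with AG. Between 20 and 4 nt upstream they held 7 to 16 pyrimidines of 17, with a median of 13, and the HNRNPL decay site, with 7, was the lowest. Their share of G and C ran from 28.3 to 55.0%, with a median of 38.3%. The nearest AG upstream of the closing AG was 21 to 53 nt away.

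Counted over splice sites instead, since a peak can lie within 100 nt of more than 1 site, bases could be read at 14 sites with a peak and 36 without in the 10 genes, and at 1626 with a peak and 36831 without in other genes. The median share of G and C was 38.3% at the hnRNP sites with a peak and also at those without, against 53.3% and 51.7% in other genes, so the low share was common to sites with and without a peak. An AG within 20 nt was found at 7.14% of the hnRNP sites with a peak and 25% of those without, against 20.4% and 22.2% in other genes. 7 or fewer pyrimidines were found at 2 of the 14 and 3 of the 36 hnRNP sites, against 0.738% and 2.92% in other genes. This cut was the lowest count among the hnRNP peaks themselves. An hnRNP site with a peak therefore had to meet it, and the contrast with other genes shows nothing about these sites. With 14 sites these shares are coarse and were not tested.

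Branch-like letters were searched on the sense strand between 50 and 15 nt upstream. CTNA, in which N is any base, was found at 42.9% of the hnRNP sites with a peak and 50% of those without, against 61.7% and 56.2% in other genes. CTNAC, which contains it, was found at 21.4% and 25% of the hnRNP sites, against 26.1% and 20.8% in other genes. Such short letters occur widely, and a match is no evidence of a used branch point. No quadruplex motif, a row of 4 G tracts with short loops, was found on the sense strand of the 13 hnRNP peaks whose bases could be read, which says only that these letters are not in them.

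Near copies could share reads with these genes. The annotation names 116 pseudogenes after the 10 genes, 74 of them after HNRNPA1, 16 after HNRNPA3 and 9 after HNRNPC. None held a peak of either list. All but 4 of the hnRNP peaks had their midpoint in introns. The handling of reads that map to several places is not stated in the labels. Its part in where peaks lie, in exons or introns of these genes, was not tested.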

How the data were processed

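The submitters' processing notes list cutadapt 3.4, STAR 2.7.0d, hg19 and hg38. Peak positions fitted hg38. No source used here gives the peak caller, its thresholds or how replicates were joined. The authors deposited 1 headerless peak list per antibody, with input entering through its values. Column 4 was read as the deposited −log10 p-value and column 5 as the deposited log2 fold, from column order and range.

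Peaks were placed on GENCODE 29 with Python 3.11.15 (numpy 2.4.6, scipy 1.17.1, Biopython 1.88 for protein alignments, matplotlib 3.10.9). For shares and ranks a peak counted for 1 gene. A gene of the set described here took any peak whose midpoint it held, ahead of every other gene. Among the remaining genes, protein-coding and exonic came before others. Peaks of HNRNPA1 and HNRNPL that lie also in another gene were counted for HNRNPA1 and HNRNPL. The order favours the set described here in its counts, ranks and shares. Introns are those of the coding transcript with most exons. Bases came from GENCODE transcripts laid on the genome (206694, with 0 disagreeing bases). Placement was checked on simulated peaks. Counts and exact 95% intervals were used, with no test, since no value per library was given.

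All 10 genes and all their peaks are named, with at most 4 other hnRNP genes by highest log2 fold. Genes and lists were chosen with earlier results of these data known. The alternatives tried were other overlap, distance, transcript and threshold rules. 1 intron-end sequence is not reported here.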

Additional observations from a re-analysis of the deposited data

How the results depend on the processing

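Of 24 alternatives to 8 results, 23 left the value on the same side or within 1.5 times, or within its counting interval, and 1 moved it. The share of hnRNP peaks at decay sites was 12.5% for sites that no coding transcript uses and 78.1% for sites of any decay transcript, because most decay transcripts share the splice sites of coding ones. Genes with an SF3B4 peak numbered 6 to 8, and their peaks 22 to 33. The lowest counts came with a −log10 p of at least 10 for genes and, for peaks, also without the peaks that lie in another gene of the strand, a setting chosen after seeing the data, which left 7 genes. The share 10 to 60 nt upstream ran from 75.8% for the 5' ends of peaks to 91.7% for peaks of a log2 fold of at least 4, and widened to 97.0% for 1 to 100 nt. With the basic transcript set it was 81.8%. The share of all other peaks is not given here for the 5' ends or the basic set, so those values stand without a comparison. No G4PID peak appeared under any setting. No paired analysis was possible because each antibody has 1 list with no value per library, so neither a replicate block nor leaving out a replicate could be run. With no read counts per peak, depth and the limit of detection are unknown.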
